A study of Mus musculus with 18 samples.

Results

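The 10 genes described here encode enzymes that build triglyceride in the cell, and they were chosen by name from the table of gene expression of mouse liver. They are Mogat1, Mogat2, Dgat1, Dgat2, Gpam, Agpat2, Agpat3, Lpin1, Lpin2 and Lpin3, which makes 10 of the 54532 genes in the table. Of these, 9 passed the filter of a mean of at least 1 FPKM over all mice and were tested among 10216 genes, and Mogat2 lay under it. FPKM is the number of sequenced fragments on a gene per kilobase of its length, divided by a library size set for each mouse. Levels of different genes can therefore be set side by side.

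The livers came from 18 male mice of the C57BL/6J strain (C57BL/6 in the sample labels), 6 in each of 3 groups, which were 6 weeks old when they arrived and were fasted overnight before the liver was taken. Normal control mice (NC) ate a normal chow diet. High-fat diet mice (HFD) ate a high-fat diet for 14 weeks and then received saline while the diet went on. SZ-A mice ate the same diet for the same time and then received SZ-A, the alkaloids of Ramulus Mori (Sangzhi), which are extracted from mulberry twigs, with the high-fat diet continued. Treatment lasted 8 weeks by the deposited description and 6 weeks by the study's methods. The dose and route given to the sequenced mice are not stated in the sources used here. One NC mouse, NC6, is labelled with the high-fat diet against its own title, and was kept in its group.

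Triglyceride is a glycerol backbone with fatty acids on all of its positions. In the glycerol phosphate route, a glycerol-3-phosphate acyltransferase (GPAT) and then an acylglycerol-phosphate acyltransferase (AGPAT) add fatty acids to make phosphatidic acid, a lipin removes the phosphate to give diacylglycerol, and a diacylglycerol acyltransferase (DGAT) adds the last fatty acid. In the other route, known best from the absorbing cells of the intestine, a monoacylglycerol acyltransferase (MGAT) makes diacylglycerol directly from monoacylglycerol.

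Depth on genes was 17163191 to 20493907 fragments per mouse. The 6 hepatocyte marker genes summed to 23210 to 56640 FPKM per mouse, which is the signal of liver, with medians of 40760 among NC, 28950 among HFD and 31190 among SZ-A mice. Values come from whole tissue, so fewer cells of a type and less RNA per cell cannot be told apart. A gene was called changed at an adjusted p under 0.05 with a fold change over 1.2, where p came from limma on log2(FPKM + 0.1) and was adjusted by Benjamini-Hochberg over all 10216 genes. Fold changes and their standard errors (SE) are on that scale, which understates the change of a gene of low level, and ± after a level gives the SD over 6 mice.

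The members spanned most of the range of liver expression. Dgat2 was the highest, with a mean of 179.9 FPKM over the 18 mice, above 97.2% of tested genes. It was followed by Agpat2 (91.0 FPKM), Agpat3 (53.0), Gpam (42.5), Lpin2 (35.7), Lpin1 (17.5), Dgat1 (7.95), Mogat1 (2.75), Lpin3 (1.28) and Mogat2 (0.133). Single mice overlapped between neighbours in this order except at 2 places. Every mouse had more Agpat2 (67.3 FPKM or more) than any mouse had Agpat3 (66.2 or less), and more Lpin3 (0.846 or more) than any had Mogat2 (0.468 or less).

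**Figure D1:**
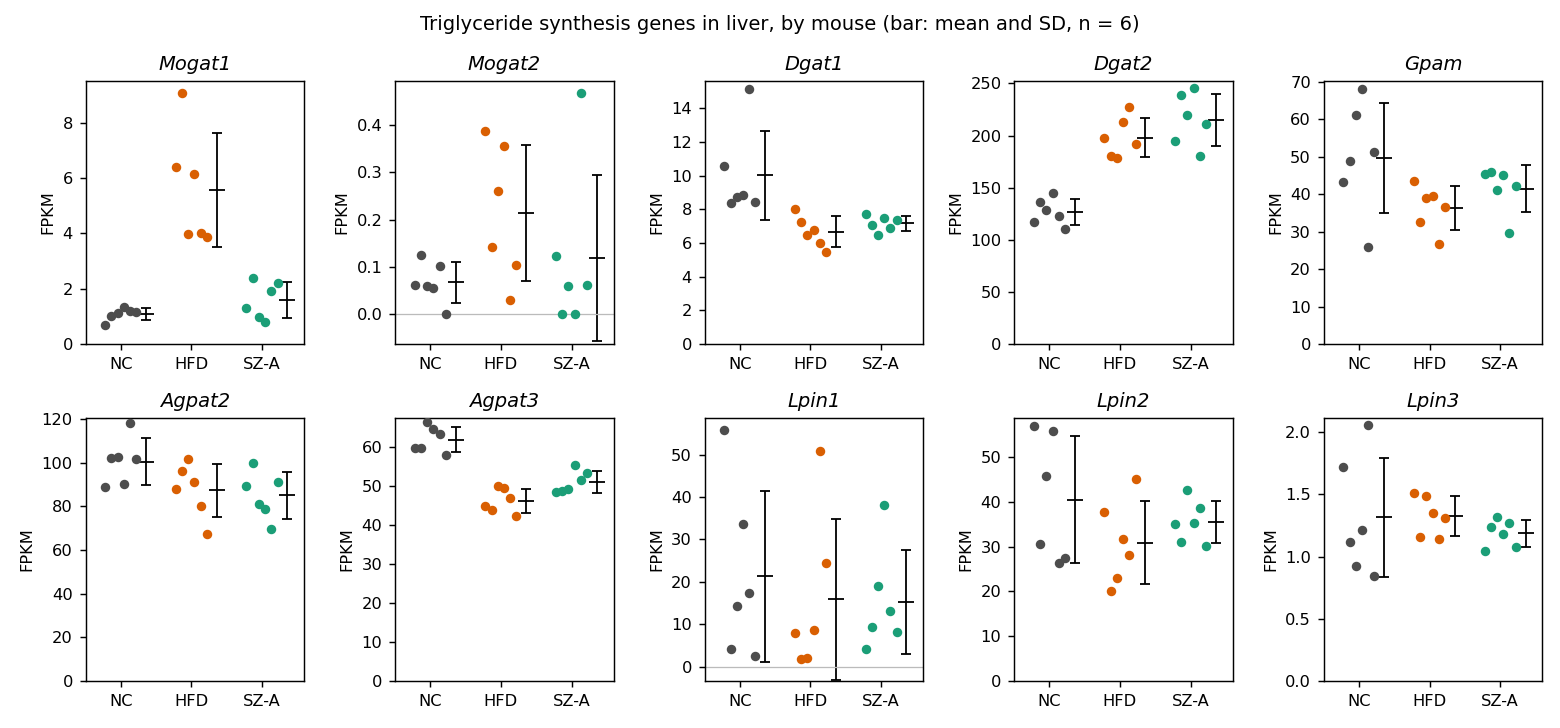
FPKM of the 10 genes (vertical axes, linear, each with its own scale) in the 6 mice of NC, HFD and SZ-A (points, one per mouse), with the mean and SD beside them. Mogat1 stands at 3.87 to 9.08 FPKM in HFD mice and at most at 2.39 in the others, Dgat2 is higher and Dgat1 and Agpat3 are lower in both high-fat groups than in NC, and Lpin1 runs from 1.73 to 55.8 FPKM with no separation of the groups.

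The high-fat diet was compared with normal chow to see how the diet moved the pathway. Among the 9 tested members, 4 were called in HFD against NC, where 20.2% of all tested genes were called. Mogat1 and Dgat2 rose, against 10.7% of all genes called higher. Dgat1 and Agpat3 fell, against 9.49% called lower. The same 4 members were those whose HFD and NC mice did not overlap, as did not 10.5% of all genes. The median log2 fold change of the 9 members was -0.37, beside -0.03 for all genes. With NC6 left out, these 4 members were called again.

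SZ-A was compared with HFD to see what the alkaloids changed in mice that stayed on the diet. Mogat1 fell and was the only member called of 9, where 0.147% of all genes were called and 0.0685% were called lower. It was also the only member whose SZ-A and HFD mice did not overlap, where 0.489% of all genes were lower without overlap. Of the 9 members, 2 had an unadjusted p under 0.05, Mogat1 and Agpat3, where 14.8% of all genes did. The median log2 fold change of the members was 0.12, beside 0.03 for all genes.

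SZ-A mice were also compared with NC mice. Dgat2 was higher and Dgat1 and Agpat3 were lower, 3 of 9 members called where 9.6% of all genes were called, 5.31% higher and 4.3% lower. These 3 did not overlap between the groups either, against 5.5% of all genes. The median was -0.13 for the members and -0.01 for all genes, and leaving out NC6 kept the 3 calls. The 3 comparisons share their groups of mice, so their values stand side by side and are not independent of each other.

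**Figure D2:**
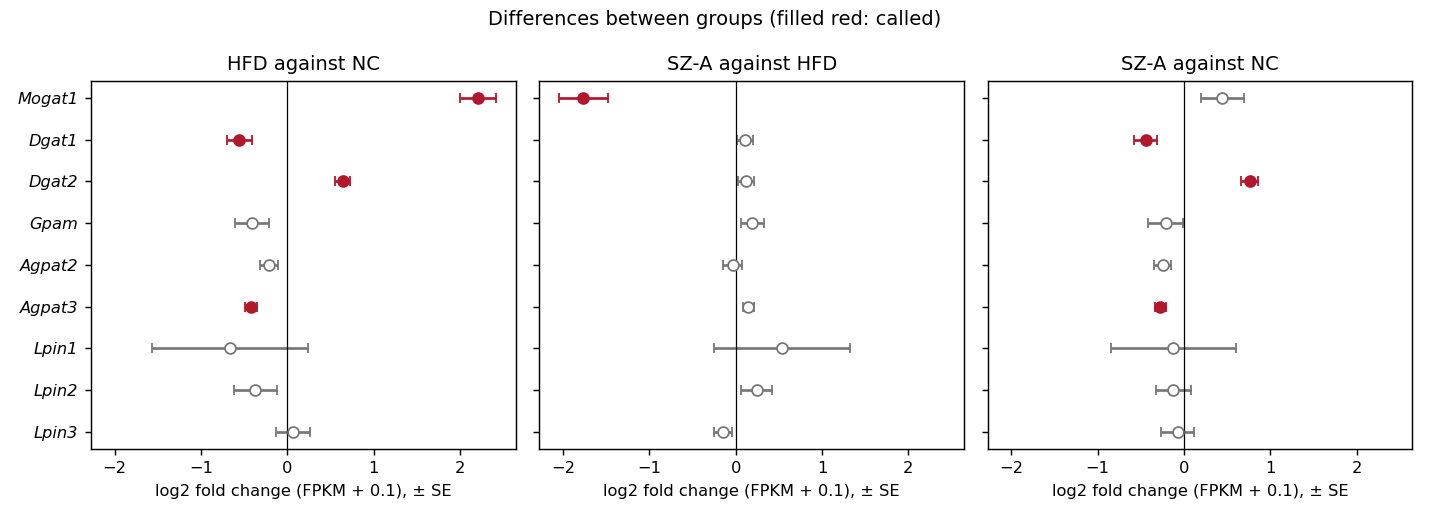
Log2 fold change of FPKM + 0.1 with its SE (horizontal axis) of the 9 tested genes in HFD against NC, SZ-A against HFD and SZ-A against NC (n = 6 mice a group). Filled red points are called genes, with 4, 1 and 3 of them in the panels from left to right. The bars of Lpin1 are the widest, with an SE of 0.72 to 0.90.

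Gpam encodes the mitochondrial GPAT that starts the glycerol phosphate route, and lies on chromosome 19 (mm10 55069734 to 55099451, minus strand). Its lowest, median and highest values were 25.9, 50.0 and 68.0 FPKM in NC mice, 26.6, 37.7 and 43.5 in HFD mice and 29.5, 43.6 and 45.8 in SZ-A mice. The groups overlapped, and the NC mouse NC5 was the lowest of all 18. The difference of HFD from NC was -0.41 (SE 0.20, limma adjusted p = 0.168), and that of SZ-A from HFD was 0.19 (SE 0.13, 95% interval -0.09 to 0.48, adjusted p = 0.526). Without NC5, HFD against NC was -0.58 with an adjusted p of 0.0116.

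The AGPAT step was represented by Agpat2 (chromosome 2, 26593057 to 26604417, minus strand), an enzyme of the endoplasmic reticulum whose loss causes lipodystrophy, and Agpat3 (chromosome 10, 78269178 to 78352489, minus strand). Agpat2 ranged from 88.9 to 118.1 FPKM in the NC mice (median 101.8), from 67.3 to 101.5 in the HFD mice (89.7) and from 69.6 to 99.7 in SZ-A mice (85.3). Its groups overlapped and it was not called in HFD against NC (-0.21, SE 0.11, limma adjusted p = 0.182), in SZ-A against HFD (-0.04, SE 0.11, adjusted p = 0.911) or in SZ-A against NC (-0.25, SE 0.10, adjusted p = 0.137). It shares 64 exon bases with Egfl7 on the opposite strand, and whether the fragments were counted by strand is not given in the sources used here.

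Agpat3 was the member that varied least between mice of a group. Its lowest, median and highest values were 57.9, 61.4 and 66.2 FPKM in NC mice, 42.3, 45.8 and 49.9 in HFD mice and 48.3, 50.3 and 55.4 in SZ-A mice. All HFD and all SZ-A mice lay under all NC mice, and SZ-A mice lay on average between the other groups. It fell by 0.42 on the log2 scale in HFD against NC (SE 0.07, limma adjusted p = 0.00098) and by 0.28 in SZ-A against NC (SE 0.06, adjusted p = 0.0170). The 6 SZ-A mice all lay above the mean of the HFD mice, but the groups overlapped and the difference of 0.15 (SE 0.06, 95% interval 0.01 to 0.28) had an unadjusted p of 0.0349 and an adjusted p of 0.291, and was not called. Scaling mattered here, since with the FPKM of each mouse rescaled to a common sum it was -0.23 in HFD against NC, under the fold change asked for, and -0.032 in SZ-A against HFD. In SZ-A against NC the fold change also came under 1.2 without NC3 (-0.26) or without SZ-A1 (-0.26).

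The lipins are phosphatidic acid phosphatases with a catalytic site built on the aspartates of a short motif, and lipin 1 also works in the nucleus as a partner of transcription factors. The coding sequence around that site is shown because the 3 genes share it, while their mean levels in these livers differed. These were 17.5 FPKM for Lpin1, 35.7 for Lpin2 and 1.28 for Lpin3. The 15 capital bases are the codons for aspartate, isoleucine, aspartate, glycine and threonine, and each stretch of 63 bases is read 5′ to 3′ from the GENCODE M21 transcripts (GRCm38) and spans an intron in the genome. The stretches lie at chr12:16546792-16547532 (minus strand) for Lpin1, chr17:71243390-71243940 (plus strand) for Lpin2 and chr2:160903705-160903939 (plus strand) for Lpin3, and the first codon in capitals is codon 712, 724 and 651 of the coding sequences.
Lpin1: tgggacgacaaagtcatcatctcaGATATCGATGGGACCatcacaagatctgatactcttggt
Lpin2: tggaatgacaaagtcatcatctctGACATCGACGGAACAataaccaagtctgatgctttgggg
Lpin3: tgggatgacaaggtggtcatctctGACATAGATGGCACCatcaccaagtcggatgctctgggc
Lpin1 matched Lpin2 and Lpin3 at 48 of the 63 bases each, and Lpin2 matched Lpin3 at 51. The longest run of bases shared exactly by transcripts of any members was 24, between Lpin1 and Lpin3, while reads were 150 bases long.

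Lpin1 (chromosome 12, 16535669 to 16610966, minus strand) varied more between mice of the same group than between groups. Its lowest, median and highest values were 2.54, 15.9 and 55.8 FPKM in NC mice, 1.73, 8.24 and 50.8 in HFD mice and 4.04, 11.2 and 38.1 in SZ-A mice. The highest mouse was 21.9 times the lowest in NC, 29.3 times in HFD and 9.42 times in SZ-A, and the groups overlapped almost wholly. The differences were -0.66 (SE 0.90, limma adjusted p = 0.642) in HFD against NC, 0.53 (SE 0.79, adjusted p = 0.798) in SZ-A against HFD and -0.13 (SE 0.72, adjusted p = 0.940) in SZ-A against NC. The 95% interval of SZ-A against HFD ran from -1.17 to 2.24, so a change of several-fold either way was not detectable with this spread. Between 366 and 9484 fragments fell on Lpin1 in each mouse.

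Lpin2 (chromosome 17, 71182560 to 71249817, plus strand), the main lipin of liver, was steadier. It ranged from 26.4 to 57.0 FPKM in the NC mice (median 38.2), from 20.03 to 45.2 in the HFD mice (29.9) and from 30.2 to 42.7 in SZ-A mice (35.2). The groups overlapped and the limma adjusted p was 0.308 in HFD against NC (-0.37, SE 0.24), 0.559 in SZ-A against HFD (0.24, SE 0.18) and 0.754 in SZ-A against NC (-0.12, SE 0.20). Lpin3 (chromosome 2, 160880670 to 160906002, plus strand) was low throughout, at 1.32 ± 0.476 FPKM among NC, 1.33 ± 0.158 among HFD and 1.19 ± 0.109 among SZ-A mice, with 59 to 123 fragments a mouse, and was not called in any comparison (adjusted p from 0.567 to 0.860).

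Because Lpin1 moved so much, the make-up of the lipins differed from mouse to mouse. Lpin1 made up 8.22% to 48.7% of the summed lipin FPKM in NC mice, 7.57% to 63.5% in HFD mice and 10.1% to 51.0% in SZ-A mice. Lpin1 was above Lpin2 in HFD5, where it held 63.5% and Lpin2 35.1%, and in SZ-A4, where it held 51.0% and Lpin2 47.4%, and in no other mouse. Lpin3 never held more than 5.61%.

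The tested genes whose pattern over the 18 mice was nearest to that of Lpin1 were looked up after its spread was seen. The measure was the root mean square difference of log2 values, each gene centred on its own mean. It was 0.76 for Fkbp5, which encodes a co-chaperone of steroid receptors, 0.94 for Zbtb16, a zinc finger transcription factor, and 0.94 for AC140346.1, beside a median of 1.503 over all tested genes. Fkbp5 was 13.7 FPKM in NC1, 20.4 in HFD5 and 24.1 in SZ-A4, the mice with the most Lpin1 of their groups, and 2.40 in NC6 and 3.18 in HFD2, those with the least. The order was not the same throughout, since Fkbp5 was highest among NC mice in NC5 (23.2 FPKM), where Lpin1 was 17.4 FPKM. All these points share their libraries, and the likeness is a description.

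The MGAT enzymes and Dgat2 belong to one family, marked by a histidine-rich motif in the active site, while Dgat1 is of another family and shares only the reaction. The stretch around the motif is shown since the members of this family include the one that changed most, Mogat1, and the one that was most abundant, Dgat2. The 12 capital bases are the codons for histidine, proline, histidine and glycine, within 60 bases of coding sequence read 5′ to 3′ from the same transcripts, and the first of them is codon 109 in Mogat1, 108 in Mogat2 and 161 in Dgat2. They lie at chr1:78523601-78523660 (plus strand), chr7:99223619-99223678 (minus strand) and chr7:99158951-99159010 (minus strand).
Mogat1: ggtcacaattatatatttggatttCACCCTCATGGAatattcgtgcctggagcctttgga
Mogat2: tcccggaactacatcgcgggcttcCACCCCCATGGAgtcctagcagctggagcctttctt
Dgat2: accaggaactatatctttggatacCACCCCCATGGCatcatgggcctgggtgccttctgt
Mogat1 matched Mogat2 at 36 and Dgat2 at 37 of the 60 bases, and Mogat2 matched Dgat2 at 39.

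Mogat1 (chromosome 1, 78510991 to 78538173, plus strand) is an MGAT found in several tissues. The values in NC mice were 0.693 at the lowest, 1.14 at the median and 1.33 at the highest, those in HFD mice 3.87, 5.08 and 9.08, and those in SZ-A mice 0.816, 1.60 and 2.39 FPKM. Every HFD mouse lay above every other mouse, HFD2 highest, while SZ-A and NC mice overlapped. The fragments behind these values numbered 19 to 42 among NC, 116 to 325 among HFD and 23 to 74 among SZ-A mice, so single values in NC and SZ-A carry a large counting error.

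Mogat1 rose by 2.21 on the log2 scale in HFD against NC (SE 0.21, fold 4.62 with a 95% interval of 3.36 to 6.35, limma adjusted p = 4.1e-05). SZ-A mice had 0.294 times the HFD level (log2 fold change -1.77, SE 0.28, interval of the fold 0.192 to 0.450, adjusted p = 0.0341), lower than the HFD mean in 6 of 6 mice. Against NC, the SZ-A difference was 0.44 (SE 0.25, interval -0.10 to 0.99, adjusted p = 0.291). A p over the threshold does not show that SZ-A and NC mice had the same level.

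The fall of Mogat1 under SZ-A was close to the limit of the test. Leaving out any one of 7 mice took the adjusted p over 0.05 with log2 fold changes between -1.87 and -1.61. It was 0.108 without HFD1, 0.0944 without HFD2, 0.0934 without HFD4, 0.0932 without SZ-A1, 0.0976 without SZ-A3, 0.0732 without SZ-A4 and 0.0746 without SZ-A6. In these 7 fits only 2 to 6 of all 10216 genes were called, where 15 were called with all mice. The adjusted p of Mogat1 was 0.126 with no filter on low values, where 0 of the 27266 genes tested were called. The HFD against NC call held under all 23 alternatives.

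The summed levels of macrophage, stellate cell and adipocyte markers were also highest in HFD mice at the median, the adipocyte sum mainly through Cfd. Those of intestinal markers, a sum that was mostly Fabp2, and of skeletal muscle markers were not. The 7 macrophage markers were all detected and summed to 142.5 to 244.5 FPKM among NC, 252.3 to 345.2 among HFD and 206.5 to 296.2 among SZ-A mice. Of the 7, 4 were called higher in HFD against NC, where 10.7% of all genes were. In SZ-A against HFD, 1 was called lower, Cd68 (14.4 ± 1.82 to 9.20 ± 1.44 FPKM, limma adjusted p = 0.0451), where 0.0685% of all genes were. The 6 stellate cell markers summed to 33.7 to 47.9, 37.3 to 86.4 and 34.4 to 51.1 FPKM in the same order. The 6 adipocyte markers summed to 1.49 to 8.68, 24.2 to 137.6 and 2.62 to 33.6 FPKM, mostly Cfd in HFD mice and Cfd and Fabp4 in the others. The defining adipocyte gene Adipoq was near 0 and highest in NC mice, with means of 0.202, 0.091 and 0.0640 FPKM in the same order. Plin1 (0.074, 0.013 and 0.0018 FPKM) and Retn (0.064, 0.032 and 0 FPKM) were also highest in NC mice. Lep was at 0 in all NC and SZ-A mice and had a mean of 0.037 FPKM in HFD mice. The 4 skeletal muscle markers had summed medians of 0.897, 0.379 and 0.771 FPKM, within ranges of 0.513 to 6.28, 0.284 to 32.06 and 0.569 to 1.197 FPKM. The muscle gene Acta1 was 24.1 FPKM in HFD3 and 4.03 in NC2, and Mylpf was 5.12 in HFD3. The part of macrophages and stellate cells in the Mogat1 difference was not tested. Mogat1 also shares 200 of its 1558 exon bases with BC035947 on the opposite strand, which had a mean of 0.0626 FPKM.

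The tested genes nearest to Mogat1 over the 18 mice were Capg, an actin-capping protein, Lgals3, which encodes galectin-3, and Anxa2, an annexin. Their root mean square differences from it were 0.41, 0.42 and 0.42, beside a median of 1.09 over all tested genes. The mean of Capg was 1.06 FPKM among NC, 3.55 among HFD and 1.58 among SZ-A mice. That of Lgals3 was 3.07, 11.03 and 4.996 FPKM, and that of Anxa2 was 2.57, 12.2 and 4.999 FPKM. Each was called higher in HFD against NC. None of them was called in SZ-A against HFD, with limma adjusted p of 0.0591 for Capg, 0.0961 for Lgals3 and 0.105 for Anxa2. Lgals3 and Anxa2 overlapped between SZ-A and HFD mice, and Capg did not. Of the next 2 genes, Rcan2 (0.447) was called lower in SZ-A against HFD without overlap (-1.12, limma adjusted p = 0.0368). Il1rn (0.497) overlapped and was not called (adjusted p = 0.112). Both were called higher in HFD against NC.

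**Figure D3:**
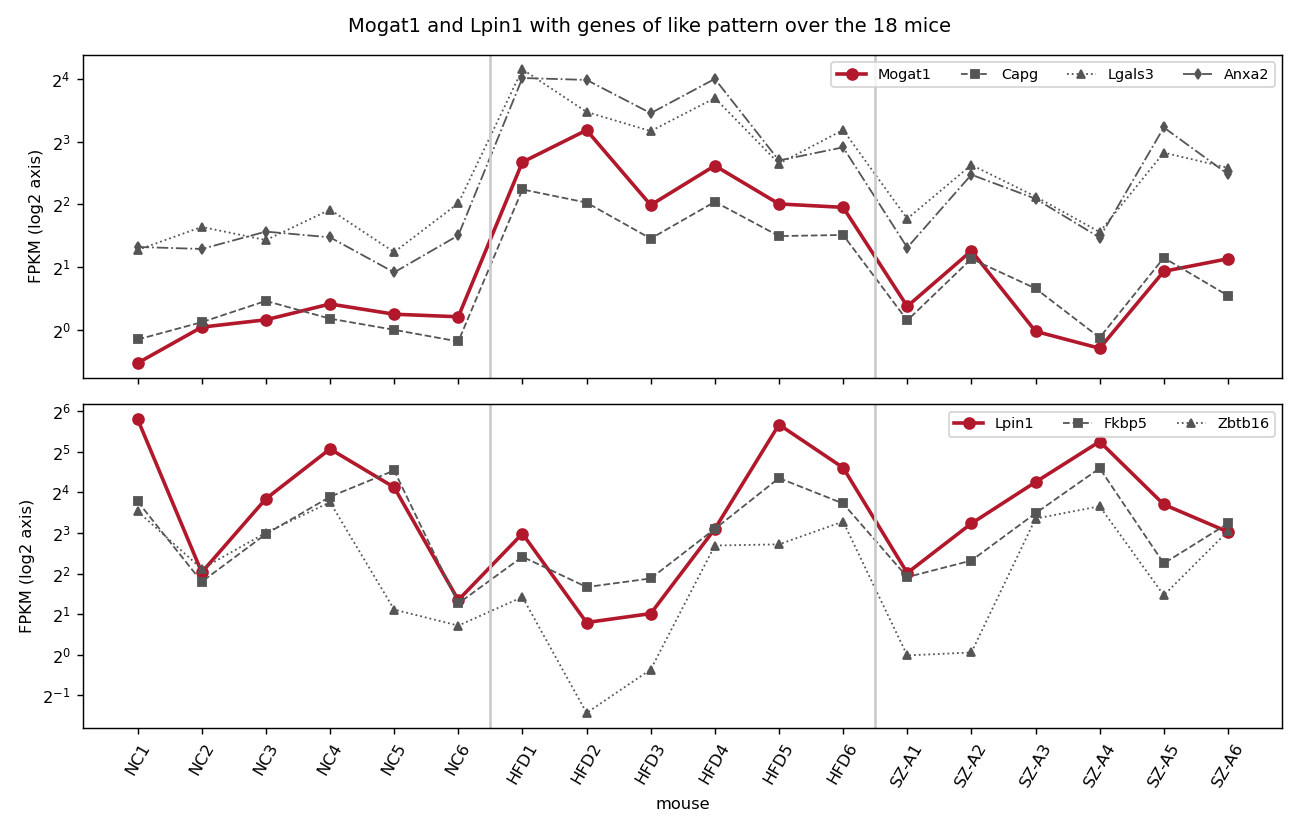
FPKM (vertical axis, log2 scale) of Mogat1 with Capg, Lgals3 and Anxa2 (top) and of Lpin1 with Fkbp5 and Zbtb16 (bottom) in each of the 18 mice (horizontal axis). Lines join points to guide the eye only, since mice have no order. The genes in the top panel are high in HFD mice, and those in the bottom panel vary within every group, with Lpin1 at 55.8 FPKM in NC1 and 2.54 in NC6.

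Mogat2 (chromosome 7, 99219084 to 99238619, minus strand), the main MGAT of the intestine, was barely detected. It had 0 to 4 fragments in an NC mouse, 1 to 15 in an HFD mouse and 0 to 15 in an SZ-A mouse. A count of 0 allows up to about 3 fragments at 95% confidence, for counting error only. Its lowest, median and highest values were 0, 0.0606 and 0.125 FPKM among NC, 0.0294, 0.202 and 0.387 among HFD and 0, 0.0599 and 0.468 among SZ-A mice. The groups overlapped, and the highest SZ-A mouse, SZ-A5, was above all others. The mean of log2(FPKM + 0.1) was 0.81 higher in HFD than in NC (exact two-sided permutation test over all assignments of the mice, p = 0.0498, adjusted over the 3 comparisons 0.149). SZ-A against HFD was -0.67 (exact permutation p = 0.190) and SZ-A against NC 0.14 (p = 0.768), and the smallest p this design allows is 0.00216.

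Leaving out SZ-A5 took SZ-A against HFD for Mogat2 to -0.999 with an unadjusted exact permutation p of 0.0411 and turned SZ-A against NC to -0.19. The unadjusted p of HFD against NC went over 0.05 when any of 9 mice was left out (HFD1 to HFD4, NC1 and NC3 to NC6), to between 0.0563 and 0.0974. Of the 5 intestinal markers, Cdx1 was at 0 in all mice and Cdx2 in all but SZ-A4, where it was 0.0245 FPKM. Vil1 was 0.435 FPKM in SZ-A5, the mouse with the most Mogat2, and at most 0.0933 in the others. Fabp2 had means of 121.3 FPKM among NC, 124.1 among HFD and 143.7 among SZ-A mice, and Lgals4 of 6.12, 3.51 and 4.995 FPKM, with Lgals4 lower in HFD against NC (limma adjusted p = 0.0225). The part of intestinal cells in the Mogat2 values was not tested. The genes nearest to Mogat2 in pattern were S100a6 (0.46), Cyb561 (0.50) and Isyna1 (0.51), beside a median of 0.80, and at these counts the likeness says little.

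Dgat2 (chromosome 7, 99153658 to 99182719, minus strand), the DGAT of liver known for using newly made fatty acids, was higher in both groups on the high-fat diet. Its lowest, median and highest values were 110.7, 125.7 and 145.4 FPKM in NC mice, 178.2, 194.6 and 227.4 in HFD mice and 180.8, 215.4 and 245.5 in SZ-A mice. All 12 mice on the high-fat diet lay above all NC mice, and HFD and SZ-A mice overlapped. Dgat2 rose by 0.64 in HFD against NC (SE 0.09, fold 1.56, limma adjusted p = 0.000441) and was 0.76 higher in SZ-A than in NC (SE 0.10, fold 1.69, adjusted p = 0.000979), and both calls held under all 24 alternatives with the fold change over 1.2. The SZ-A difference from HFD was 0.12 (SE 0.09, interval -0.08 to 0.31, adjusted p = 0.596).

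Dgat1 (chromosome 15, 76502015 to 76511953, minus strand), the DGAT that also handles fatty acids taken up from outside, went the other way. It ranged from 8.35 to 15.1 FPKM in the NC mice (median 8.79), from 5.48 to 8.04 in the HFD mice (6.64) and from 6.49 to 7.70 in SZ-A mice (7.23). All mice on the high-fat diet lay under all NC mice, of which NC5 stood far above the rest. Dgat1 fell by 0.55 in HFD against NC (SE 0.14, limma adjusted p = 0.0164) and by 0.44 in SZ-A against NC (SE 0.13, adjusted p = 0.0498), and SZ-A differed from HFD by 0.11 (SE 0.09, interval -0.08 to 0.30, adjusted p = 0.604).

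Of the calls of members, that of Dgat1 in SZ-A against NC was lost under the most alternatives. It was lost under 16 of 24 alternatives, with an adjusted p of up to 0.134, and among them when any of NC1 to NC4 or any SZ-A mouse was left out, which gave an adjusted p of 0.0512 to 0.109. In HFD against NC the adjusted p of Dgat1 was 0.0764 with FPKM rescaled to a common sum and 0.0558 with voom on whole fragments. Under the rescaling the median over all genes became 0.16 in HFD against NC and -0.15 in SZ-A against HFD, and Dgat1, Dgat2 and Agpat3 then had differences of -0.068, -0.063 and -0.032 between SZ-A and HFD.

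With Dgat2 up and Dgat1 down, the ratio of their RNA levels necessarily differed between diets. The ratio of Dgat2 to Dgat1 FPKM was 8.13 to 16.4 in the NC mice (median 13.9), 24.6 to 37.8 in the HFD mice (29.4) and 25.3 to 33.9 in SZ-A mice (30.6). Every mouse on the high-fat diet was above every NC mouse, and HFD and SZ-A overlapped. The first of these follows from the separation of both genes already given and adds no support to it. The ratio of Mogat1 to Dgat1 was 0.0656 to 0.1503 among NC, 0.612 to 1.25 among HFD and 0.109 to 0.339 among SZ-A mice, the HFD mice above all others. A ratio within a mouse does not depend on the scaling between mice.

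**Figure D4:**
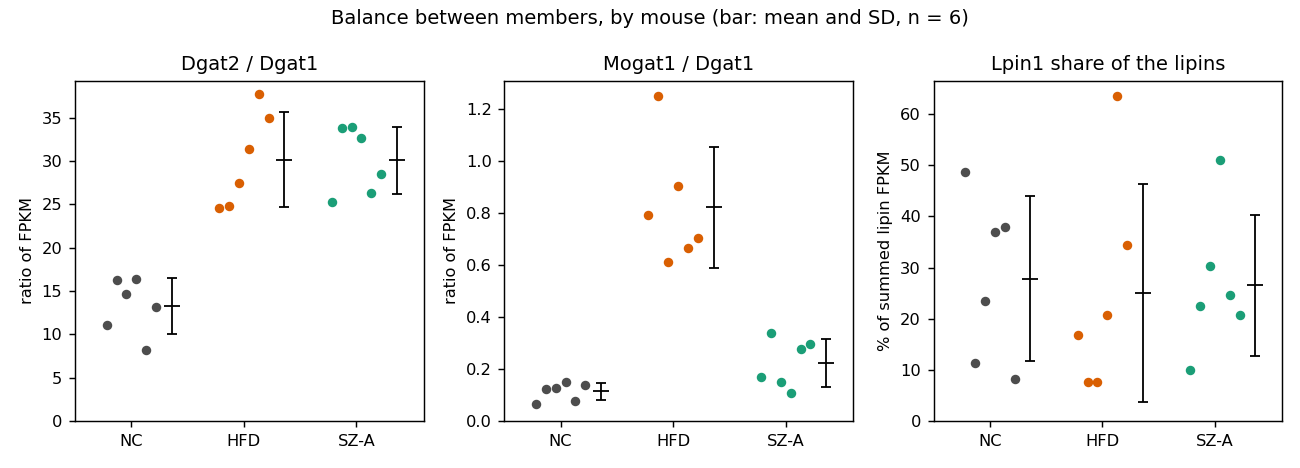
Ratio of Dgat2 to Dgat1 FPKM, ratio of Mogat1 to Dgat1 FPKM and Lpin1 as a percentage of the summed FPKM of the 3 lipins (vertical axes, from 0) in each mouse of NC, HFD and SZ-A (points), with the mean and SD of 6 mice. The first ratio is 24.6 or more in all HFD and SZ-A mice and 16.4 or less in NC, the second is 0.612 or more only in HFD mice, and the lipin share overlaps between all groups.

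The other enzymes of glycerolipid synthesis, 24 in the table and 20 of them tested, were taken as a list: further GPAT and AGPAT genes, the acyl-CoA synthetases that activate fatty acids, the glycerol phosphate dehydrogenases and glycerol kinase, lipid phosphate phosphatases and others. In HFD against NC, 3 of 20 were called, all lower, where 20.2% of all tested genes were called and 9.49% were called lower. They were Acsl5, an acyl-CoA synthetase (56.9 ± 7.22 to 43.6 ± 4.55 FPKM, log2 fold change -0.38, limma adjusted p = 0.0174), Gpat4, a GPAT of the endoplasmic reticulum (-0.34, adjusted p = 0.0378) and Gk, glycerol kinase (-0.42, adjusted p = 0.0423). The median of the 20 was -0.08, and Acsl4 (-0.51, adjusted p = 0.0598) and Gpat3 (0.50, adjusted p = 0.198), with larger fold changes, did not pass. Leaving out any of NC2, NC6, HFD1 and HFD3 left 1 of the 3 calls. With FPKM rescaled to a common sum, and with voom on fragments, none of the 3 was called and 2 others were called higher, Gpd1l (0.39 and 0.35, adjusted p = 0.0268 and 0.0201) and Agpat1 (0.44 and 0.41, adjusted p = 0.0397 and 0.0493), which were named after their values were seen.

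In SZ-A against HFD none of the 20 was called by limma on log2 FPKM or by voom, where limma called 0.147% of all genes. An unadjusted p under 0.05 was reached by 3 of the 20, where 14.8% of all genes reached it. Their median was 0.00. The largest fold changes were those of Gpat3 (-0.43, SE 0.26, adjusted p = 0.479), Acsl3 (0.31, SE 0.24, adjusted p = 0.594) and Plpp1, a lipid phosphate phosphatase (0.28, SE 0.10, adjusted p = 0.205). In SZ-A against NC, 3 were called, all lower, where 9.6% of all genes were called and 4.3% were called lower. They were Acsl4, which prefers polyunsaturated fatty acids (11.9 ± 1.85 in NC and 7.18 ± 1.22 FPKM in SZ-A mice, -0.72, adjusted p = 0.00553), Gpat4 (49.5 ± 6.76 and 35.2 ± 4.32 FPKM, -0.49, adjusted p = 0.0133) and Lclat1, a lysocardiolipin acyltransferase (-0.38, adjusted p = 0.0150). The Lclat1 call was lost with FPKM rescaled to a common sum (adjusted p = 0.0592). The mice did not overlap between SZ-A and NC for these 3 genes, as they did not for 5.5% of all genes.

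Of 9 regulators of lipid synthesis, 5 were called in HFD against NC, where 20.2% of all genes were called, 10.7% higher and 9.49% lower. Srebf1, which encodes the transcription factor SREBP-1, rose from 6.96 ± 3.26 to 20.9 ± 10.02 FPKM (log2 fold change 1.53, limma adjusted p = 0.00752), Pparg from 3.41 ± 0.911 to 5.94 ± 0.998 (0.80, adjusted p = 0.00468) and Mlxipl, which encodes ChREBP, from 11.9 ± 2.43 to 18.3 ± 4.79 (0.59, adjusted p = 0.0338). Insig2, which holds SREBP in the endoplasmic reticulum, fell from 219.9 ± 136.6 to 71.5 ± 22.4 FPKM (-1.50, adjusted p = 0.00325). Its NC mean was raised by NC5 at 490.9 FPKM, with the other NC mice at 120.5 to 205.8. Scap, the escort of SREBP, fell from 18.03 ± 1.18 to 13.5 ± 1.62 (-0.42, adjusted p = 0.00485). The Scap call was lost, at an adjusted p of up to 0.129, with FPKM rescaled to a common sum and with voom on fragments. The Mlxipl call was lost without any of NC1 to NC4, HFD1 to HFD3 and HFD6, at an adjusted p of up to 0.0939.

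None of the 9 regulators was called in SZ-A against HFD, by limma or by voom. Where 14.8% of all genes had an unadjusted p under 0.05, 2 of the 9 did. These were Insig1 (0.89, SE 0.30, adjusted p = 0.197) and Scap (0.25, SE 0.08, adjusted p = 0.175), for both of which 6 of 6 SZ-A mice lay above the mean of HFD mice. Pparg was -0.20 (SE 0.21, adjusted p = 0.695) and Srebf1 -0.04 (SE 0.50, adjusted p = 0.977). In SZ-A against NC, where 9.6% of all genes were called, Mlxipl was higher (0.70, adjusted p = 0.0175) and Insig2 lower (-1.45, adjusted p = 0.0155). Both were not called with no filter on low values (adjusted p = 0.0649 and 0.0669). Ppargc1a (-0.87, SE 0.34, adjusted p = 0.125) and Srebf1 (1.48, SE 0.47, adjusted p = 0.0636) did not pass.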

How the data were processed

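Per the labels, poly-A RNA of liver was made into libraries with a NEBNext Ultra kit, and the paper gives paired-end reads of 150 bases. The submitters' processing notes name HISAT2 2.0.5, featureCounts 1.5.0-p3 and mm10. The authors deposited 1 table of FPKM, which was used here as deposited. The authors' DESeq2 test was not repeated.

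Multiplied by gene length, FPKM gave whole fragments for 100% of values within 0.05 of a fragment, which gave the depth. The library size behind the FPKM was 0.9325 to 1.141 times the fragments on genes. The median ratio of a mouse's FPKM to the geometric mean of all mice was 1.003 (SZ-A5) to 1.010 (NC3). The deposited values were thus already close to median-ratio scaling, unlike FPKM rescaled to a common sum and voom on fragments. Each comparison was fitted in R 4.3.3 with limma 3.58.1 (lmFit, eBayes with a trend) on log2(FPKM + 0.1) of its own 6 against 6 mice, without covariates. Mogat2, under the filter, had an exact permutation test. Alternatives were other pseudocounts (1 and 0.01) and filters (none, a mean FPKM of at least 5), scalings, voom on whole fragments, all 18 mice in one fit, sample weights, no trend, a replicate block, other fold thresholds and each mouse left out. Of the scripts, only the pairwise limma fit was tested on simulated data. Python 3.11.15, numpy 2.4.6, pandas 2.3.3, scipy 1.17.1 and matplotlib 3.10.9 did the rest.

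All members were named, with list genes called or among the 3 largest fold changes, and the 3 genes nearest in pattern to members whose group means differed at least 2-fold. Those nearest to Lpin1, and which genes to show for it, were chosen after its values were seen. Rcan2 and Il1rn were also named after their values were seen. Members and lists were chosen with earlier results of these data known.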

Additional observations from a re-analysis of the deposited data

Results flagged for a closer look

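Among the 30 groups of 6 mice (10 genes in 3 groups), 3 held a mouse whose gap to the nearest other mouse as a share of the group's whole range was over Dixon's 95% limit for 6 values, and chance flags about 1 in 20 groups. Dgat1 was 15.1 FPKM in NC5, where the other NC mice were at 8.35 to 10.6 (gap 0.673 of the range). Gpam was 29.5 FPKM in SZ-A5, with the other SZ-A mice at 41.2 to 45.8 (0.714). Mogat2 was 0.468 FPKM in SZ-A5, with the others at 0 to 0.122 (0.738). Both mice were also unlike their groups over the genes at large, by chi-square per degree of freedom of fragments between pairs of mice. It was 69.4 to 111.8 in pairs with NC5 and 21.5 to 58.3 in the other NC pairs. For SZ-A5 it was 49.9 to 149.5, and 20.25 to 82.25 in the other SZ-A pairs.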

How the results depend on the processing

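Over the tested members, comparisons and alternatives, 593 fold changes kept their direction and side of the threshold, 32 lost a call, 2 gained one and 15 changed sign. The causes were not tested. SZ-A against HFD gave 0 member calls with no filter, with a mean FPKM of at least 5 (Mogat1 is then not in the fit) and with mice of the same number as a replicate block. HFD against NC gave 2 after rescaling to a common sum and 1 with a fold change over 2, and SZ-A against NC gave 0 with the latter. Of the other glycerolipid genes, HFD against NC called 5 with all 18 mice in one fit, 7 with sample weights and 0 with a fold change over 2, and SZ-A against NC called 6 and 0 with the last 2 settings. Of all 10216 genes, HFD against NC called 2268 in one fit and 2666 with sample weights, and SZ-A against NC called 1682 with sample weights. In SZ-A against HFD, no filter and the replicate block each called 0 of all genes in the fit. A mean FPKM of at least 5 called 26 of 5183. The share of all genes with a fold change over 2 is not given here. Leaving out 1 mouse gave 0 to 1 member calls in SZ-A against HFD. It gave 4 to 5 in HFD against NC and 1 to 3 in SZ-A against NC. Of all 10216 genes, 2 to 49, 1646 to 2145 and 601 to 1179 were called in the same order. The other glycerolipid calls were 0, 1 to 4 and 3 to 4. The Mogat2 differences were -0.999 to -0.50, 0.65 to 1.03 and -0.19 to 0.31.

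Signs changed in SZ-A against HFD for Dgat1 (-0.068 after rescaling, -0.0040 with voom), Dgat2 (-0.063) and Agpat3 (-0.032, both after rescaling), and in SZ-A against NC for Lpin1 (0.11) and Lpin3 (0.10) with sample weights and for Mogat2 (-0.10, pseudocount 0.01). With 1 mouse left out they changed for Agpat2 in SZ-A against HFD (-0.11 to 0.019), Lpin3 in HFD against NC (-0.035 to 0.20), and Lpin1 (-0.59 to 0.29) and Lpin3 (-0.18 to 0.06) in SZ-A against NC. None of these was a call. Mogat2 in HFD against NC was 1.52 (exact permutation p = 0.0606) with a pseudocount of 0.01, and 0.81 with a limma adjusted p of 0.199 without a filter. Gpam in HFD against NC was called with sample weights (-0.57, adjusted p = 0.0095).

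Same-numbered mice had correlations of -0.07 to 0.29 in SZ-A against HFD, -0.12 to 0.10 in HFD against NC and -0.04 to 0.11 in SZ-A against NC. In the same order, 1, 1 and 3 of 6 mice were nearest their own number. Whether the replicate numbers stand for a pairing is not given in the sources used here, and these correlations cannot settle it. The replicate block took all gene calls in SZ-A against HFD from 15 to 0, in HFD against NC from 2062 to 1647 and in SZ-A against NC from 981 to 922, and gave Mogat1 an adjusted p of 0.123 in the first. Rescaling to a common sum gave 10 higher and 206 lower in SZ-A against HFD and 2095 and 333 in HFD against NC. Voom with median-ratio library sizes was added after the data were seen. Low fragment numbers limit Mogat2, and Mogat1 in NC and SZ-A mice.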
